A study of Danio rerio with 4 samples.

Results

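The proteasome genes of zebrafish were followed here in tubgcp6 mutants and their siblings. They were chosen by name, with earlier results of these data known. Every row of the count table was taken whose gene name begins with psm, a letter from a to g and a digit. A total of 20 or more reads over the 4 libraries was also required. Of 58 matching rows, 54 met this minimum, out of 23236 rows in the table. The 54 comprised 9 genes of the alpha ring, 7 of the standard beta ring, 3 immune or alternative beta subunits and 7 ATPase genes. They also held 17 rows named psmd, here the non-ATPase class, 5 activator genes, 1 inhibitor gene and 4 assembly chaperone genes. The last, psmc3ip, matched by name only: it is named for a partner of a proteasome ATPase and works in meiotic recombination in mammals. The name psmd2 stood on 2 rows, which were kept apart.

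RNA came from whole zebrafish (Danio rerio) of the AB laboratory strain, collected at 7 days post fertilisation without treatment from crosses of tubgcp6+/- parents. Genotyping sorted them into tubgcp6 mutants and siblings, with 2 libraries of each, called biological replicates 1 and 2. Neither the lesion in tubgcp6, a subunit gene of the gamma-tubulin ring complex, nor the mix of genotypes among the siblings was stated, and whether the replicates came from separate clutches was not stated either, and p-values therefore rest on the spread among these 4 libraries, which may be partly technical. Total counts were between 14246582 and 20652276, and 0.278% to 0.318% of them fell on the 54 rows. For tubgcp6 itself, 510 and 531 reads were counted in mutants and 498 and 803 in siblings, a log2 fold change of -0.33 ± 0.10 (SE; mutant over sibling throughout). Markers of muscle, heart, neurons, liver, intestine, epidermis, red cells, lens and exocrine pancreas were all read in every library, as whole animals should give. For lens the median log2 fold change of the markers was -2.24, for exocrine pancreas -1.76, for red cells -0.92 and for intestine -0.84. It was -0.29 for neurons, 0.08 for muscle, 0.32 for epidermis, 0.71 for heart and 0.75 for liver. Each of these medians rests on only 2 or 3 genes. The liver genes fabp10a and tfa lay apart, at 0.02 and 1.48. So did the neuron genes elavl3 and snap25a, at -0.64 and 0.05. Whether these shifts bear on the proteasome genes was not tested.

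The proteasome is the main protease of the cytosol and nucleus and degrades proteins tagged with ubiquitin. Its barrel-shaped core is built from outer rings of alpha subunits and inner rings of beta subunits, and the beta rings hold the catalytic sites. A regulatory particle with a ring of ATPases and a set of non-ATPase subunits binds the ubiquitin chain, removes it and threads the protein into the core. Interferon and lymphoid cells replace the catalytic beta subunits with immune ones, which change the peptides made for display on major histocompatibility complex (MHC) class I. Other activators can cap the core in place of the regulatory particle.

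Most proteasome genes were read at slightly higher levels in mutants, by a median of 1.23-fold. Of the 54 rows, 53 passed the filter on low counts; psmb12 did not. With edgeR's quasi-likelihood test and Benjamini-Hochberg adjustment over all genes, 26 of the 53 were called higher in mutants (adjusted p under 0.05), 2 were called lower and 25 were not called. That is 49.1% called higher, where 22.9% of all 20080 genes tested were called higher, and 3.77% called lower, where 21% of all genes were. The median log2 fold change was 0.30, and 0.01 over all genes tested. The rows lay close together, with an interquartile range from 0.14 to 0.40, or 0.26 wide, against 0.64 for all genes tested. Values from few reads are less exact (SE 0.46 for psmb8a and 0.09 for psmb5). No background of like read level was computed, so part of the difference in width may be precision. In 38 of the 53 rows both mutant libraries lay above both sibling libraries (71.7%, and 36.6% of all genes tested). In 3 rows they lay below (35.1% of all genes tested did), and in 12 the groups overlapped. In whole animals, a change in the RNA of each cell and a change in the mix of cells cannot be told apart.

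The changes were small for all but a few genes. Only 6 of the 53 rows were called higher and differed at least 1.5-fold, namely psme1, psme2, psma6l, psmd8, psmd10 and psmc3ip. That is 11.3%, close to the 13.4% of all genes tested that met the same rule. One row, psme4a, was called lower and differed at least 1.5-fold, as did 9.73% of all genes. The count of called genes also depended on single libraries. It was 12 without sibling replicate 2 and 14 without sibling replicate 1, where 14.6% and 17.1% of all genes tested were called higher. It was 36 without mutant replicate 2, where 23.8% of all genes were called higher, and DESeq2 in place of edgeR called 17, where it called 15.5% of all genes higher. The genes psme1, psme2, psme3, psmb5, psmc1a, psmc3, psmc6, psmd8, psmd10 and psmd12 were called higher in all 9 of the other fits made (other scalings, no filter, DESeq2, a replicate block and each library left out), and psme4a and psmg2 were called lower in all 9.

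**Figure D1:**
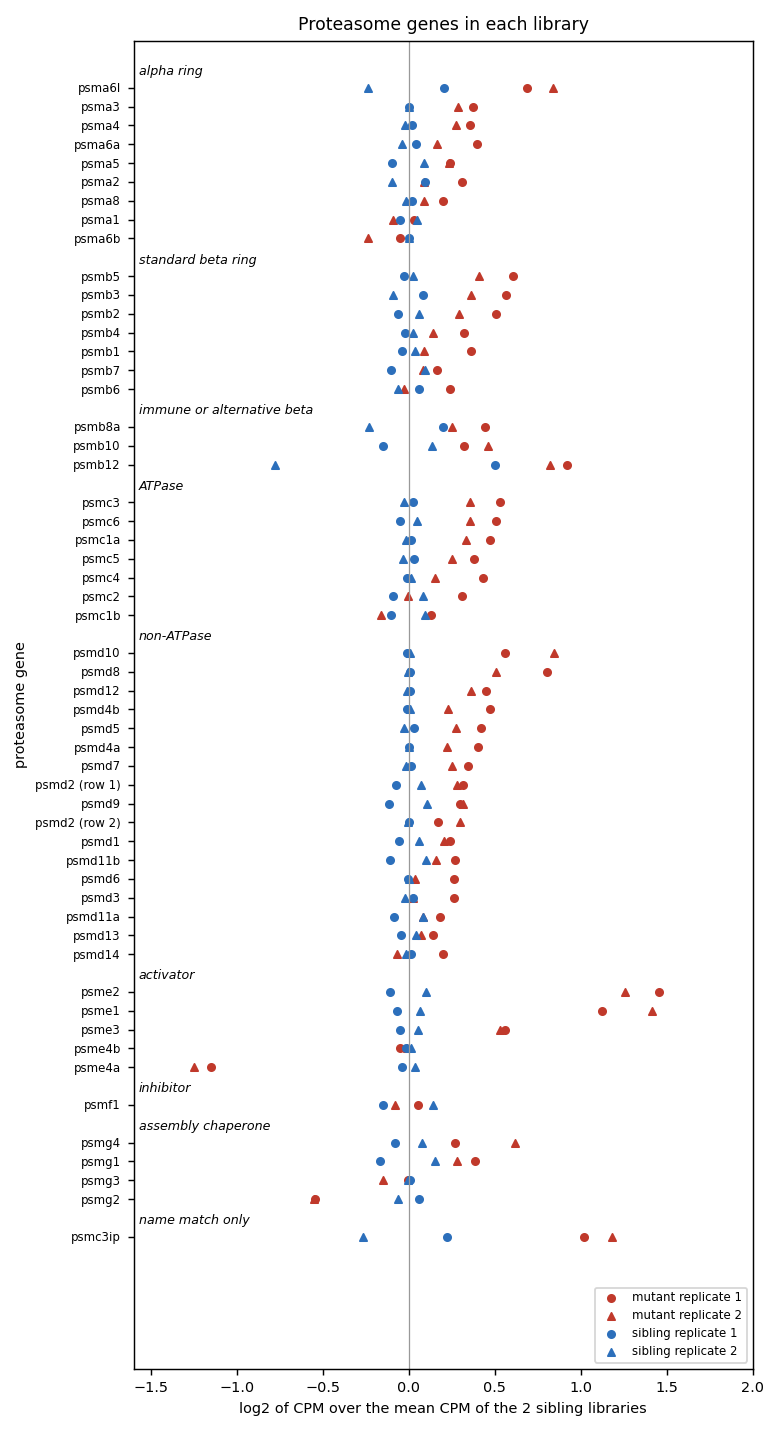
Level of each of the 54 proteasome rows in each library, as log2 of CPM over the mean of the 2 sibling libraries, grouped by class. CPM is the reads of a gene relative to the TMM-scaled size of its library. Most red mutant symbols lie to the right of the blue sibling symbols, in 38 of the 53 tested rows without overlap; psme4a and psmg2 lie to the left.

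Within the core, 8 of 16 ring genes were called higher and 0 were called lower (background as above), with a median log2 fold change of 0.23. At an unadjusted p under 0.05 none of the 16 was lower either, and DESeq2 called none lower. The summed level of the 16 genes was 1118 and 1005 CPM in mutant replicates 1 and 2, and 898 and 915 CPM in sibling replicates 1 and 2, a 1.17-fold difference of means. Both mutant libraries lay above both sibling libraries, but the mutant libraries differed from each other by more than the lower of them differed from the higher sibling library.

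Of the 3 catalytic genes of the standard beta ring, only psmb5 was called with all 4 libraries. The gene psmb5, which encodes the chymotrypsin-like subunit, stood at 94.6 and 82.5 CPM in mutants and 60.9 and 63.2 CPM in siblings. The groups were well apart, and its log2 fold change was 0.51 ± 0.09 (SE; edgeR adjusted p = 4.39e-05). By contrast psmb6, of the caspase-like subunit, stood at 70.0 and 58.4 CPM in mutants and 62.0 and 56.9 CPM in siblings, groups that overlapped (0.11 ± 0.10, edgeR adjusted p = 0.368; 0.24 and 0.0156 without mutant replicate 2). The gene psmb7, of the trypsin-like subunit, overlapped too, at 110 and 104 CPM in mutants against 91.7 and 105 CPM in siblings (0.12 ± 0.09, edgeR adjusted p = 0.287). Whether psmb5 differed from psmb6 or psmb7 in its change was not tested. Among the structural beta genes, psmb3 (0.47 ± 0.10) and psmb2 (0.40 ± 0.10) were higher, and psmb4 (0.23 ± 0.09) as well, while psmb1 at 0.23 ± 0.10 just missed the threshold with an edgeR adjusted p of 0.0523. The call of psmb3 was lost without sibling replicate 2, and that of psmb2 without sibling replicate 1. That of psmb4 was lost in DESeq2 and on leaving out mutant replicate 1, sibling replicate 1 or sibling replicate 2. Over the 9 other fits the log2 fold change of psmb4 ranged from 0.13 to 0.32. The gene psmb1 was called with library totals (0.0482), with the replicate number as a block (0.0285) and without mutant replicate 2, where it was at 0.36 (edgeR adjusted p = 8.76e-05).

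In the alpha ring, whose subunits gate the entry to the core, 4 of 9 genes were higher (44.4%, where 22.9% of all genes tested were). The largest value was that of psma6l, a further copy of the psma6 type with few reads, at 5.15 and 5.73 CPM in mutants and 3.69 and 2.72 CPM in siblings (0.80 ± 0.23, edgeR adjusted p = 0.00611). Its groups did not overlap, but the call was lost without sibling replicate 2, where the value was 0.56 (edgeR adjusted p = 0.187), and in DESeq2 (adjusted p = 0.074). The genes psma3 (0.33 ± 0.09) and psma4 (0.32 ± 0.09) followed, each with non-overlapping groups. Both calls were lost without sibling replicate 1, where the values were 0.33 for psma3 and 0.33 for psma4. Both were also lost without sibling replicate 2, where the values were 0.33 and 0.29. The gene psma6a was at 0.28 ± 0.11, a call lost in DESeq2 (adjusted p = 0.158) and on leaving out mutant replicate 1 (edgeR adjusted p = 0.236), sibling replicate 1 (0.115) or sibling replicate 2 (0.29). At the other end were psma6b at -0.14 ± 0.10 and psma1 at -0.03 ± 0.09, neither called; psma6b was called lower without mutant replicate 1 (-0.25, edgeR adjusted p = 0.0416). The gene listed as psma8, for which RefSeq also holds the name psma7, was at 0.14 ± 0.09 and not called, although both of its mutant values (109 and 101 CPM) lay above both sibling values (96.3 and 94.1 CPM); without mutant replicate 2 it was called at 0.20 (edgeR adjusted p = 0.0301).

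Of the 24 ATPase and non-ATPase rows, 14 were called higher and 0 lower, with a median of 0.30. Over all genes 22.9% were higher and 21% lower. DESeq2 called none of the 24 lower either, and none was lower at an unadjusted p under 0.05. The 24 hold both rows of psmd2, and they hold psmd5, psmd9 and psmd10, which encode assembly chaperones of the ATPase ring. The summed level of the 24 rows was 1666 and 1494 CPM in mutant replicates 1 and 2. It was 1296 and 1341 CPM in sibling replicates 1 and 2, a 1.20-fold difference. As in the core, mutant replicate 1 was the highest library. Of the 7 genes of the ATPase ring, which unfolds substrates, 5 were higher. The gene psmc3 stood at 91.9 and 81.2 CPM in mutants and 64.7 and 62.4 CPM in siblings (0.45 ± 0.09, edgeR adjusted p = 0.000221), psmc6 was at 0.43 ± 0.09 and psmc1a at 0.40 ± 0.09. The genes psmc5 (0.32 ± 0.09) and psmc4 (0.30 ± 0.09) were called as well, but psmc5 was lost without sibling replicate 2 (edgeR adjusted p = 0.141), and psmc4 was lost in DESeq2 (adjusted p = 0.0539) and on leaving out sibling replicate 1 (edgeR adjusted p = 0.118), sibling replicate 2 (0.103) or mutant replicate 1 (0.146), where its value was 0.14. The lowest values were those of psmc2 (0.16 ± 0.10) and psmc1b (-0.02 ± 0.10), whose groups overlapped. Here too a single library mattered: without mutant replicate 2, psmc2 was at 0.30 with an edgeR adjusted p of 0.000908.

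Of the 17 non-ATPase rows, 9 were higher (52.9%, where 22.9% of all genes tested were) and all 17 had a positive log2 fold change. Both rows of psmd2 were among those called. The calls of psmd1, psmd4b, psmd7 and both psmd2 rows were each lost in 1 to 6 of the 9 other fits. The lid gene psmd8 stood at 71.8 and 58.3 CPM in mutants and 41.2 and 40.9 CPM in siblings, groups far apart, with a log2 fold change of 0.66 ± 0.10 (edgeR adjusted p = 4.35e-06). The gene psmd10 encodes gankyrin, a chaperone that helps to assemble the ATPase ring and is not part of the finished particle. It stood at 9.23 and 11.2 CPM in mutants and 6.24 and 6.31 CPM in siblings (0.71 ± 0.17, edgeR adjusted p = 0.00153). The other chaperones of that step were at 0.35 ± 0.13 for psmd5 and 0.30 ± 0.15 for psmd9; psmd5 was called (edgeR adjusted p = 0.0335) and psmd9 was not (0.116). The call of psmd5 was lost in DESeq2 (adjusted p = 0.174) and in edgeR without mutant replicate 1 (0.125), sibling replicate 1 (0.121) or sibling replicate 2 (0.249). The lid gene psmd12 was at 0.40 ± 0.09 (edgeR adjusted p = 0.000674). The smallest values were those of the lid gene psmd13 (0.11 ± 0.09) and of psmd14 (0.07 ± 0.10), the deubiquitinase gene of the lid. In psmd14 the groups overlapped, at 67.7 and 56.3 CPM in mutants against 59.6 and 58.4 CPM in siblings.

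**Figure D2:**
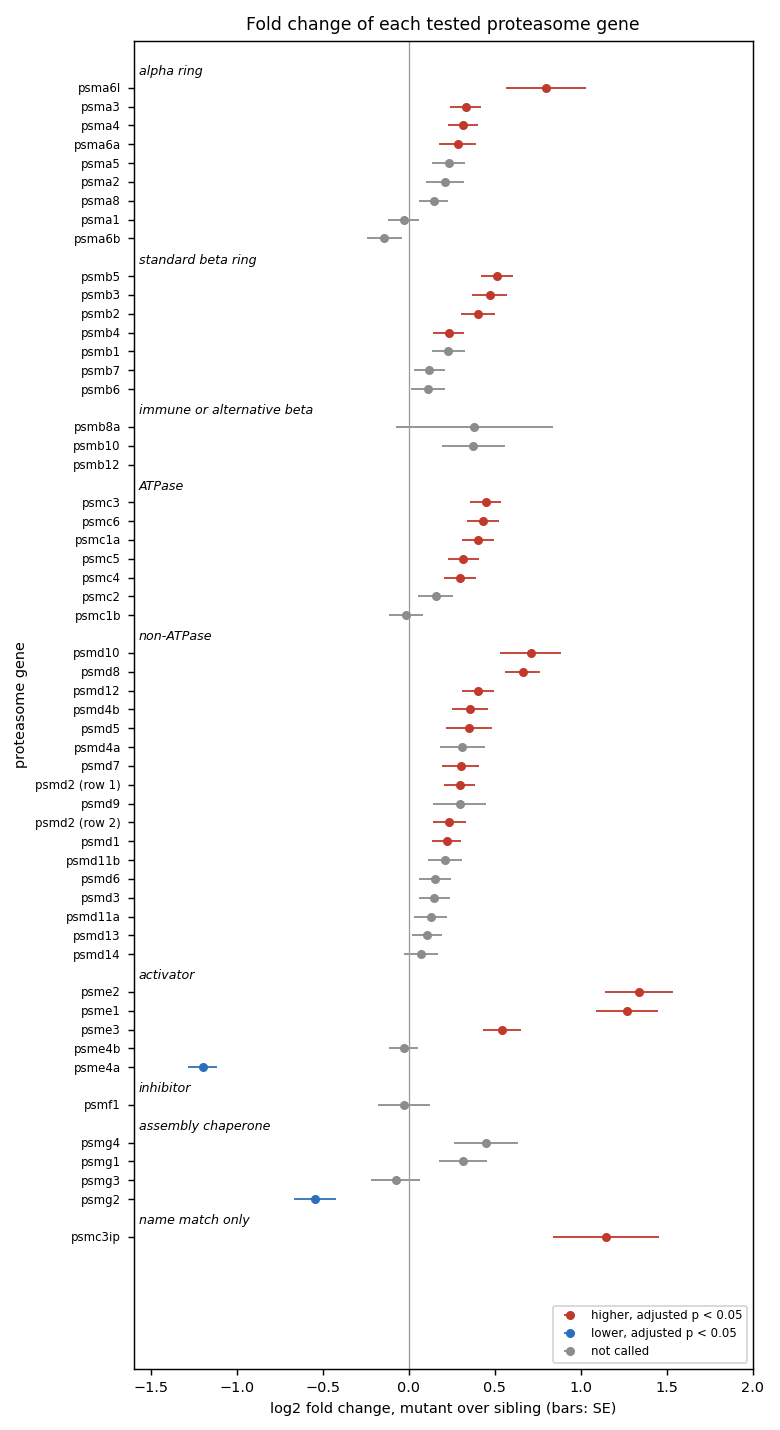
Log2 fold change (mutant over sibling, bars are SE) of each of the 53 tested rows, by class, with called rows (adjusted p under 0.05) in red (higher, 26) or blue (lower, 2); psmb12 was not tested. The core and regulatory genes fall in a narrow band, and the activators spread from -1.20 (psme4a) to 1.34 (psme2).

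The activators spread farther apart than any other class. The genes psme1 and psme2 encode the subunits of the cap PA28 alpha-beta, which interferon gamma induces in mammals and which serves the making of MHC class I peptides. The level of psme1 was 10.5 and 12.8 CPM in mutants and 4.61 and 5.05 CPM in siblings, and that of psme2 was 10.1 and 8.76 CPM in mutants and 3.40 and 3.93 CPM in siblings. For both genes every mutant value was far above the sibling values. The log2 fold change was 1.27 ± 0.18 for psme1 (edgeR adjusted p = 1.27e-06) and 1.34 ± 0.20 for psme2 (edgeR adjusted p = 2.22e-06), or 2.41-fold and 2.53-fold. Among all genes tested, 95.9% lay at or below psme1 and 96.4% at or below psme2. The gene psme3, of the nuclear cap PA28 gamma, rose less, from 20.8 and 22.4 CPM in siblings to 31.8 and 31.2 CPM in mutants (0.54 ± 0.11, edgeR adjusted p = 0.000214).

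The fall of psme4a stood against this. Like its copy psme4b, this gene encodes the cap PA200, a nuclear activator that in mammals acts on acetylated histones. The level of psme4a was 185 and 173 CPM in mutants and 400 and 422 CPM in siblings, a log2 fold change of -1.20 ± 0.08 or 0.436-fold (edgeR adjusted p = 6.78e-13), and over the 9 other fits it ranged from -1.26 to -1.16. Its copy psme4b stayed within a narrow range, at 111 and 114 CPM in mutants and 113 and 116 CPM in siblings (-0.03 ± 0.08, edgeR adjusted p = 0.796). Because psme4a had many reads, the summed level of the 5 activator genes was lower in mutants, at 348 and 340 CPM against 542 and 570 CPM in siblings, although 3 of the 5 were higher. The inhibitor gene psmf1, whose product PI31 binds the core, was at 12.2 and 11.2 CPM in mutants and 10.6 and 13.0 CPM in siblings, groups that overlapped (-0.03 ± 0.15).

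The immune subunits had few reads in all libraries. The 4 genes psmb13a, psmb8a, psmb12 and psmb9a follow each other in the RefSeq table of the assembly GRCz12tu, on chromosome 19 beside tap2a, in the core MHC class I region. For psmb8a, of the immune chymotrypsin-like subunit, 17 and 16 reads were counted in mutants and 12 and 13 in siblings. The difference was not called (0.38 ± 0.46, edgeR adjusted p = 0.527), and by counts alone the ratio was 1.31 with an exact 95% interval from 0.754 to 2.29, so a change of 2-fold would lie within it. For psmb12 there were 8 and 8 reads in mutants and 5 and 3 in siblings, a ratio of 1.98 with an interval from 0.80 to 5.35, and the gene was not tested. Below the minimum of 20 reads were psmb9a (17 in all), psmb13a (11 in all) and the thymus-type genes psmb11a (4) and psmb11b (3), and just above it stood psmb12 (24). By counts alone the ratio was 0.88 for psmb9a (interval from 0.30 to 2.57) and 4.46 for psmb13a (0.92 to 42.4). It was 2.97 for psmb11a (0.24 to 156) and 1.98 for psmb11b (0.10 to 117). The intervals cover counting error only. The immune gene psmb10, of the trypsin-like site, was better covered. It had 128 and 151 reads in mutants and 77 and 137 in siblings, or 7.57 and 8.32 CPM against 5.46 and 6.65 CPM; the groups did not overlap, yet the difference was not called (0.38 ± 0.18, edgeR adjusted p = 0.100).

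The 3 immune or alternative beta genes that met the minimum were also set against their standard counterparts, as ratios of reads that no scaling of the libraries can change. No such ratio was computed for psmb9a or psmb13a, which fell below the minimum. The ratio of psmb8a to psmb5 reads was 0.0106 and 0.0107 in mutants and 0.0140 and 0.00998 in siblings, with groups that overlapped. That of psmb10 to psmb7 was 0.0687 and 0.0799 in mutants and 0.0595 and 0.0633 in siblings, higher in both mutants. That of psmb12 to psmb6 was 0.00676 and 0.00755 in mutants and 0.00572 and 0.00256 in siblings. In an exact two-sided permutation test over the 4 libraries, p was 1, 0.333 and 0.333, and after adjustment over the 3 ratios 1, 0.50 and 0.50. With 2 libraries a group, 0.333 is the smallest p this test can give. The mean log2 ratio of psmb8a to psmb5 was lower by 0.15 in mutants with all libraries and was higher by 0.10 without sibling replicate 1.

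Reads of these genes could be affected by the genotype at the MHC. Zebrafish carry divergent haplotypes of the core MHC class I region, with different copies of these subunit genes, and reads of a copy that is not in the annotation would not be counted under these names. In the same region mhc1uba and mhc1uka had 0 reads in all 4 libraries, and tap2a had 3 and 2 in mutants and 1 and 2 in siblings. The peptide-loading gene tapbp.1 had 40 and 42 reads in mutants but 16 and 3 in siblings. Which haplotypes the embryos carried was not given, and their part in these counts was not tested. Also, psmb13a and psmb8a overlap in RefSeq, and how reads in the overlap were counted was not given.

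Leukocytes, a main site of the immune subunits and of PA28 alpha-beta, were represented by 14 marker genes, 13 of them in the table. Of the 11 tested, 9 were lower, 1 was higher (the neutrophil gene mpx) and 1 was not called, with a median of -1.21. That is 81.8% lower and 9.09% higher, where 21% and 22.9% of all genes tested were. Their summed level was 67.1 and 62.3 CPM in mutants and 106 and 99.7 CPM in siblings, and cd8a had 0 reads in every library. Against most markers, mpx (0.44 ± 0.12) and marco (0.35 ± 0.17, not called) lay higher in both mutant libraries than in both sibling libraries. Whether leukocyte content bears on psme1 and psme2 was not tested.

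The 4 assembly chaperone genes psmg1 to psmg4, whose products guide the alpha ring, had 1 called lower and 3 not called. That is 25% called lower, near the 21% of all genes tested that were. The products of psmg1 and psmg2 form a dimer in mammals and yeast. The gene psmg2 fell, from 23.7 and 21.8 CPM in siblings to 15.6 and 15.5 CPM in mutants (-0.55 ± 0.12, edgeR adjusted p = 0.00062), with groups well apart. The gene psmg1 stood at 16.9 and 15.8 CPM in mutants and 11.6 and 14.4 CPM in siblings, higher in both mutants but not called (0.31 ± 0.14, edgeR adjusted p = 0.069). It was called with the replicate number as a block (0.0463) and without mutant replicate 2 (0.0343). The other pair of partners was at 0.45 ± 0.19 for psmg4 (edgeR adjusted p = 0.0523; 0.0335 with the replicate block, 0.0093 without mutant replicate 1) and at -0.08 ± 0.14 for psmg3 (0.695).

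Zebrafish keep pairs of copies of several proteasome genes, and the share of a pair's reads taken by the a copy was compared between groups for 5 pairs, chosen after their values were seen. Since the copies differ in length and similar copies can share reads, a share is not the ratio of molecules. For psme4a it was 62.6% and 60.4% in mutants and 77.9% and 78.5% in siblings. For psma6a it was 50.9% and 50.1% in mutants and 43.9% and 42.5% in siblings. The share of psmc1a was 51.4% and 53.9% in mutants and 47.4% and 43.5% in siblings. For psmd4a it was 26.8% and 27.7% against 27.9% and 27.7%, and for psmd11a 45.3% and 45.5% against 47.2% and 46.5%, mutants first. In none of the 5 pairs did the groups overlap, though in psmd4a the nearest values are the same as printed. In level, 36.6% of all genes tested had both mutant libraries above both sibling libraries, and 35.1% had both below. No such background was computed for shares. In all 5 pairs the exact two-sided permutation test gave p = 0.333, also after adjustment, the smallest it can give, so the test cannot separate the large shifts from the small ones.

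**Figure D3:**
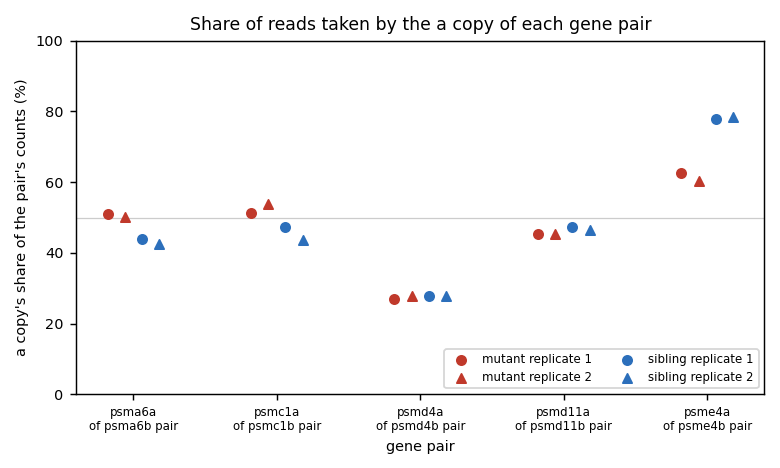
Share of the pair's reads (percent) taken by the a copy of 5 gene pairs in each library. The share of psme4a lies at 60.4% and 62.6% in mutants and at 77.9% and 78.5% in siblings, and the share of psmd11a lies at 45.3% and 45.5% in mutants and at 47.2% and 46.5% in siblings.

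Proteins that belong to the 26S particle or act on it under other names were held by a list of 11 genes, of which 10 were in the table and tested; 5 were higher and 0 lower, with a median of 0.23, against 22.9% higher over all genes. None of the 10 was lower at an unadjusted p under 0.05 or in DESeq2. The maturation factor gene pomp, needed to close the core, stood at 39.9 and 33.4 CPM in mutants and 24.2 and 26 CPM in siblings (0.54 ± 0.11). The proteasome-bound deubiquitinase gene uchl5 was at 0.50 ± 0.12, akirin1 at 0.49 ± 0.13 and the proteasome adaptor gene ecpas at 0.23 ± 0.09. The gene akirin2, also listed, was at 0.23 ± 0.09 and not called (edgeR adjusted p = 0.051). Whether akirin1 itself acts on the proteasome was not tested. The ubiquitin receptor gene adrm1, chosen with its values known, was at -0.02 ± 0.09. The list had 3 called higher in DESeq2 and 3 without sibling replicate 1, and 2 without sibling replicate 2, where 15.5%, 17.1% and 14.6% of all genes were.

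The transcription factor Nfe2l1 drives proteasome genes when proteasome activity is short; it is drawn out of the endoplasmic reticulum by p97, the product of vcp, and is cut by Ddi2. Of 14 genes of this route 6 were higher and 2 lower (median 0.16), or 42.9% and 14.3%, where 22.9% and 21% of all genes were. The gene nfe2l1b stood at 59.5 and 48.4 CPM in mutants and 34.3 and 33.2 CPM in siblings (0.68 ± 0.11, edgeR adjusted p = 5.11e-06). Its copy nfe2l1a, chosen with its values known, was at -0.21 ± 0.09 and not called (edgeR adjusted p = 0.0604). The gene vcp was at 0.38 ± 0.08 and derl2, of the channel of endoplasmic reticulum degradation, at 0.50 ± 0.15, whereas nploc4, a p97 cofactor gene, was lower (-0.30 ± 0.10). Without sibling replicate 1 the list had 2 higher and 1 lower, and without sibling replicate 2 it had 3 higher and 0 lower, where 17.1% and 14.6% of all genes were higher; without mutant replicate 2 it had 1 lower. DESeq2 called 2 of the list higher and 0 lower, where it called 15.5% of all genes higher and 14.1% lower. Of 12 tested genes of ubiquitin supply, shuttles and aggregate receptors, 5 were higher and 1 lower (median 0.03), or 41.7% and 8.33%, beside the same 22.9% and 21% of all genes. The co-chaperone gene bag3 was at 0.59 ± 0.12, the deacetylase gene hdac6 at 0.40 ± 0.12, the shuttle gene ubqln4 at 0.28 ± 0.09, and rps27a, which encodes ubiquitin fused to a ribosomal protein, at -0.27 ± 0.09. Fewer were called on leaving out either sibling library. DESeq2 called 3 higher and 1 lower, beside the same 15.5% and 14.1% of all genes. In edgeR more were called lower on leaving out either mutant library.

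In the MHC class I list 7 of 18 tested genes were higher and 0 lower (38.9% higher, where 22.9% of all genes were higher and 21% lower; median 0.36); 0 were lower at an unadjusted p under 0.05 and 0 in DESeq2. The chaperone genes pdia3 (1.02 ± 0.08) and canx (0.86 ± 0.08) also serve protein folding at large. The loading gene tapbp.1 was at 2.07 ± 0.46, from the uneven sibling counts given above, and the class I gene mhc1zba at 0.59 ± 0.12. Fewer of the list were called higher without sibling replicate 2. DESeq2 called 4 of the list higher, where it called 15.5% of all genes higher. Of 16 interferon signalling genes 6 were higher and 4 lower (median 0.16). That is 37.5% higher and 25% lower, the latter near the 21% of all genes called lower. DESeq2 called 2 of them lower, where it called 14.1% of all genes lower. In edgeR fewer were also called lower on leaving out either sibling library. The gene of the kinase Jak1 rose by 0.79 ± 0.08; irf9 (1.17 ± 0.13), stat1b (2.04 ± 0.27) and the inhibitor gene socs1a (-1.17 ± 0.14) were the others of smallest p. The gene of interferon gamma, ifng1, chosen with its values known, had 1 and 1 reads in mutants and 0 and 2 in siblings. The 9 proliferation genes, listed with earlier results of these data known, were all higher (median 1.65), where 22.9% of all genes tested were. Their summed level was 548 and 583 CPM in mutants and 187 and 187 CPM in siblings. Their log2 fold changes, those of pcna, mki67, mcm2 and plk1 among them, ran from 1.37 to 1.90. The parts of leukocyte content, cell division and interferon signals in the values of the proteasome genes were not tested.

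**Figure D4:**
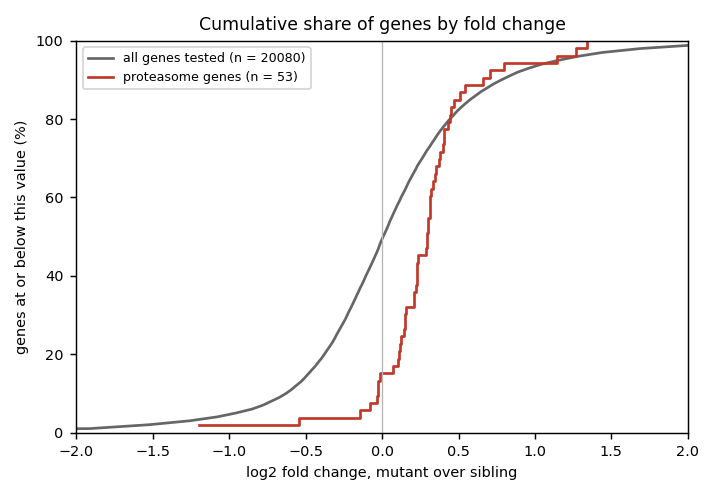
Cumulative percentage of genes at or below a log2 fold change (mutant over sibling), for the 53 tested proteasome rows (red) and all 20080 genes tested (grey; values beyond 2 in either direction are not drawn). The red curve climbs steeply, with its quartiles at 0.14 and 0.40, and its ends are psme4a at the left and psme1 and psme2 at the right.

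The name match psmc3ip was kept in the counts above but is no subunit. It had 50 and 60 reads in mutants and 24 and 25 in siblings (1.14 ± 0.31, edgeR adjusted p = 0.00329), a call lost without sibling replicate 2 (0.88, edgeR adjusted p = 0.111) and in DESeq2 (adjusted p = 0.0533).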

How the data were processed

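The authors deposited whole-number read counts for each gene in 4 libraries, in 1 table without normalization. Per the submitters' processing notes the build was GRCz11, and the tools listed, without role or order, were featureCounts 2.0.1, STAR 2.7.10a, fastp 0.23.2, DESeq2 1.26.0 and R 4.2.2. Annotation, strandedness and the handling of multi-mapping reads were not given in the sources used here, so reads of similar copies and of overlapping genes carry an uncertain split. Rows named by digits only (17, with 0.0574% to 0.0626% of counts) were left out. In R 4.3.3, edgeR 4.0.16 was run with filterByExpr at its defaults, TMM scaling and the quasi-likelihood test of mutants against siblings (glmQLFit with legacy=FALSE), with Benjamini-Hochberg adjustment over 20080 genes and a threshold of 0.05; SE is the size of the log2 fold change over the square root of F. CPM uses the TMM-scaled library sizes. The test was checked on simulated counts. DESeq2 1.42.0, other scalings, no filter, a replicate block and leaving out each library were alternatives. Gene names and neighbours come from RefSeq (GRCz12tu), where 57 of the 57 distinct matching names were found; no coordinates of it are given. The members and lists were chosen with earlier results of these data known. Genes were named by rule: all immune beta, activator, inhibitor and chaperone genes, the 3 highest and 2 lowest fold changes of each other class, and up to 4 genes of smallest p per list; other genes were chosen with their values known. No sequences were used here.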

Additional observations from a re-analysis of the deposited data

How the results depend on the processing

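The median log2 fold change of the proteasome genes stayed between 0.22 and 0.32 in all alternatives, and 47 of the 53 tested rows kept their sign in all of them; 10 of the 26 called higher and both called lower were called in all. Proteasome genes called higher numbered 26, with 17 in DESeq2, 6 when at least 1.5-fold was asked (1 called lower), and 12 to 36 with 1 library left out (2 to 3 lower). With the replicate number as a block they numbered 31 (2 lower), where 24% of all genes were called higher and 22.5% lower. The related lists then had 39 higher and 9 lower. The deviations of same-numbered libraries had a correlation of 0.028 over genes. Counting noise lowers such a correlation, so it cannot tell whether the numbers mark pairs. The 6 related lists together had 38 higher and 7 lower; 4 were lower with library totals, 3 in DESeq2, and with 1 library left out 23 to 43 were higher and 2 to 9 lower. Over all genes 4589 were higher and 4215 lower, and 2970 to 4837 and 2430 to 4676 with 1 library left out. Signs turned for 6 genes, none called in the fit of all libraries nor where the sign turned: with 1 library left out psma1 ranged from -0.10 to 0.029, psmc1b from -0.18 to 0.12, psmf1 from -0.15 to 0.14, psmc2 from -0.020 to 0.30, psmd14 from -0.077 to 0.20 and psmb6 from -0.031 to 0.24. With 1 library left out the log2 ratio of psmb8a to psmb5 ranged from -0.39 to 0.10, that of psmb12 to psmb6 from 0.32 to 1.48 and that of psmb10 to psmb7 from 0.16 to 0.38. The cause of these changes was not tested. Depth limits psmb8a, psmb9a, psmb12 and psmb13a, with 11 to 58 reads in all.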

Other observations

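RefSeq places tubgcp6 on chromosome 25, together with 3 of the 54 proteasome rows. These were psma1 (-0.03 ± 0.09), psma4 (0.32 ± 0.09) and psmd13 (0.11 ± 0.09), and psma4 was the 1 called. Siblings and mutants can differ in the alleles near the mutation, and whether this bears on these genes was not tested.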
